A study of Mus musculus with 6 samples.

Results

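The germ cell RNA-binding and piRNA genes are 9 genes taken from the deposited count table by symbol: Ddx4, Dazl, Mael, Tdrd1, Tdrd7, Piwil2, Ybx2, Cpeb1 and Rnf17. All 9 were found among the 27098 genes of the table, and all 9 passed the filter on low counts that left 17475 genes for testing. The libraries came from ovaries of 3-day-old mice cultured in DMEM/F12 with antibiotics, 3 with 2% platelet-rich plasma (PRP) for 2 h and 3 in the same medium alone (control). The series text calls the PRP human and thrombin-activated; no label gives a control with thrombin or other plasma, and neither the mouse strain nor the number of animals or pooled ovaries per library is given in the sources used here. No label states that the libraries of a group are independent cultures, so the errors and p-values below describe the spread between these libraries, which may be technical.

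Germ cells keep much of their gene control at the level of RNA. Granules beside the nucleus, called nuage, gather the helicase DDX4, PIWI proteins and tudor-domain scaffolds, and there small RNAs of the piRNA class guide the cutting of transposon transcripts. The oocyte of a newborn ovary also stores messenger RNA that it will translate much later, and Y-box, DAZ-family and CPEB proteins hold, protect or activate those stored messages. In mice, loss of Piwil2 blocks sperm formation whereas females stay fertile.

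The promoters of 4 members are shown because most of these genes are active chiefly in germ cells. Of those shown, Ddx4, Mael and Tdrd1 share the letters marked below, and Dazl does not. RefSeq windows on GRCm38.p6, from 250 bases before to 50 bases after a start site, matched 7 of the 9 members by symbol, and Piwil2 and Rnf17 are named only. Where a gene had several windows, the one nearest its annotated start was taken. Capitals mark the E-box CACGTG, which reads the same on both strands and is bound by basic helix-loop-helix factors such as MAX and MYC.
Ddx4, chr13:112652261-112652560, minus strand: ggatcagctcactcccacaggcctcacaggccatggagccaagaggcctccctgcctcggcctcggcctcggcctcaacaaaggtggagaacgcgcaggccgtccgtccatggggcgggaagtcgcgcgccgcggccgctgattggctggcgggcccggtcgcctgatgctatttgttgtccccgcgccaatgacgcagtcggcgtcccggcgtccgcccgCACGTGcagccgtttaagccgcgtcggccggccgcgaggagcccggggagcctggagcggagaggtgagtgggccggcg
Mael, chr1:166238695-166238994, minus strand: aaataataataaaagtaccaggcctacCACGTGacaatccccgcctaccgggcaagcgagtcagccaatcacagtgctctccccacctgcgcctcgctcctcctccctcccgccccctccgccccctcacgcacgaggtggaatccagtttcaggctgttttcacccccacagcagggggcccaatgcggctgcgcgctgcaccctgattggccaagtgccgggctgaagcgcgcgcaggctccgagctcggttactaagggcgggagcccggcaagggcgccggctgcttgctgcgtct
Tdrd1, chr19:56825959-56826258, plus strand: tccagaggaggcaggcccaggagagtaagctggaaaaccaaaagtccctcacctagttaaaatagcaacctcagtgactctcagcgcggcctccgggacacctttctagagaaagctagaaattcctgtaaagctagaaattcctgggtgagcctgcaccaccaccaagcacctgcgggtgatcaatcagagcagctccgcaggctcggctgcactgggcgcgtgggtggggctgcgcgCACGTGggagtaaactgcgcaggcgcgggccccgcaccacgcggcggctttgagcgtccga
Dazl, chr17:50293571-50293870, minus strand: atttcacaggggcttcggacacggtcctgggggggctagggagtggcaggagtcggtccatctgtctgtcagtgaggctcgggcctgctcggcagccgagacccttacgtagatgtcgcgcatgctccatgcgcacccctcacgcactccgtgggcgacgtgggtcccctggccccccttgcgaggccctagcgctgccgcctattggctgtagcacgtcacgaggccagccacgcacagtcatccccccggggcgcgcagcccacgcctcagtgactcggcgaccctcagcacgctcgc

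The E-box stood in 4 of the 7 windows. It began 29 bases upstream of the start site in Ddx4, 223 bases upstream in Mael and 11 bases upstream in Tdrd1, and 25 bases into the transcript in Cpeb1, whose window lies 3243 bases inside the gene's annotated span. Dazl, Tdrd7 and Ybx2 had no match in these windows. Of all 32851 windows of this length outside chromosome 18, 7.15% held the same letters, and of the 11765 windows with a CpG ratio (observed over expected) of at least 0.6 it was 11.3%. These background windows include those at further start sites of a gene, whereas each member was read only at the window nearest its annotated start. The CpG ratio reached that level in 6 of the 7 member windows, for example 0.98 in Ddx4 and 0.80 in Dazl, against a median of 0.38 over all windows; Tdrd7, at 0.23, was the exception, and its 2 windows further into the gene had 1.11 and 0.86. CCAAT, read on both strands, stood in 4 of the 7 windows and in 37.4% of all windows. The GC box GGGCGG stood in 3 of the 7 and the TATA box TATAAA in 2, beside 35.7% and 13.6% of all windows. Among the windows with a CpG ratio of at least 0.6, their shares were 72.3% and 5.98%. These matches describe letters, not bound sites.

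Library totals ran from 36037111 to 36568367 counts in PRP and from 35568000 to 35825931 counts in control. The members took 977 to 14492 counts per library, so the counting error of a single value was at most 3.20%, whereas the spread between libraries of a group (coefficient of variation) was 5.10% to 26.8%. Oocyte and pregranulosa markers were present in all 6 libraries, with sums of 4192 to 6650 and 2011 to 2194 CPM (counts scaled to equal library size). Red cell genes summed to 225, 110 and 175 CPM in PRP and to 109, 145 and 1571 CPM in control, so that control 3 stood apart. Without control 3 the count of genes called and of members called was 0, as with it.

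Compared per kilobase of the longest annotated transcript, the members spanned a wide range of levels. Ybx2, a Y-box protein that packages and stabilises stored messenger RNA, was highest at 221 ± 16.8 CPM per kilobase in PRP and 208 ± 26.3 in control (SD, n = 3 each). Cpeb1, which binds the cytoplasmic polyadenylation element of stored messages, came next with 71.6 ± 4.27 in PRP and 71.0 ± 4.13 in control. Piwil2, Mael and Tdrd1 followed with means over all 6 libraries of 54.7, 54.2 and 50.8 CPM per kilobase, and from Cpeb1 down to Tdrd1 the 6-library ranges of neighbours in this order overlapped. Dazl and Ddx4, at 30.9 and 28.2, also overlapped each other. Tdrd7 at 13.2 and Rnf17 at 7.60 CPM per kilobase were lowest, and their ranges met neither each other nor those above. With the median length of the coding transcripts in place of the longest, Piwil2 moved to the top at 279.6 CPM per kilobase, since its median is 962 bases and its longest 4916. Its place in the order therefore depends on the transcript chosen.

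**Figure D1:**
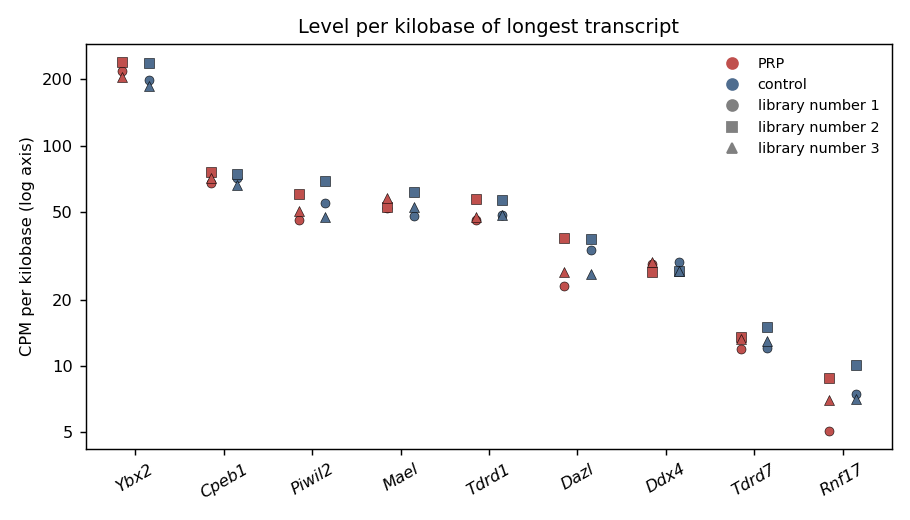
Level of each member in CPM per kilobase of its longest transcript on a log axis, one point per library, PRP left of control, with the shape giving the library number. Ybx2 lies above all others and Tdrd7 and Rnf17 lie below, while Cpeb1, Piwil2, Mael and Tdrd1 form a middle band in both groups.

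The comparison of PRP with medium asked which ovarian transcripts answer to PRP within 2 h. None of the 9 members passed an adjusted p of 0.05 in either direction (edgeR quasi-likelihood test, Benjamini-Hochberg over 17475 genes), with or without the library number as a block. The same test called 0% of all genes without the block and 0.12% with it. Of the members, 4 had a log2 fold change above 0 and 5 below, with a median of -0.03 beside 0.00 over all genes tested. No member had groups that lay apart, where 9.21% of all genes did. At an unadjusted p of 0.05, 0 of the 9 members passed without the block and 1 with it, beside 3.19% and 11.2% of all genes. DESeq2 and limma-voom called 0 members as well, with 0 at that unadjusted level, and limma-voom with the block called 0 with 1 at that level.

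Germ granule genes of the piRNA pathway come first. Ddx4 (Entrez 13206, GRCm38 chromosome 13, 112598333 to 112652633), the DEAD-box helicase that marks germ cells, had 87.8, 80.8 and 89.2 CPM in PRP 1, 2 and 3 and 89.1, 81.8 and 81.4 CPM in control 1, 2 and 3. These 6 values spanned 1.10-fold, the narrowest range of the 9 members, and all control values lay inside the PRP range. Its log2 fold change was 0.03 ± 0.07 (SE), with a 95% interval from 0.92-fold to 1.14-fold.

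Piwil2 (Entrez 57746, chromosome 14, 70372477 to 70436898) encodes MILI, the PIWI protein that binds piRNAs and cuts transposon transcripts. It had 227, 296 and 249 CPM in PRP 1, 2 and 3 and 269, 340 and 234 CPM in control 1, 2 and 3. Within both groups the library numbered 2 was highest. The log2 fold change of -0.13 ± 0.15 (SE) was smaller than its error, with an interval from 0.72-fold to 1.17-fold, and with the block it was -0.12 ± 0.06 (adjusted p = 0.498, edgeR).

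Tdrd1 (Entrez 83561, chromosome 19, 56826171 to 56870012) encodes a tudor scaffold that docks on methylated arginines of MILI. Its values were 240, 297 and 246 CPM in PRP 1, 2 and 3 and 252, 295 and 252 CPM in control 1, 2 and 3. The library number accounted for 96.4% of its variance in log2 CPM and the treatment for 1.79%, the highest share by number of any member. Its log2 fold change was -0.03 ± 0.10 (SE).

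Mael (Entrez 98558, chromosome 1, 166201385 to 166238744), the maelstrom protein of nuage that acts in transposon silencing, had 88.2, 88.9 and 97.8 CPM in PRP 1, 2 and 3 and 81.5, 104 and 88.7 CPM in control 1, 2 and 3. Both group means were 91.6 CPM, and the PRP values lay inside the control range. Its pair differences (PRP minus control of the same number) did not share a sign, at 0.11, -0.23 and 0.14 on the log2 scale.

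Tdrd7 (Entrez 100121, chromosome 4, 45965027 to 46034766), a tudor protein of germ granules that is also needed in the lens, averaged 48.2 ± 3.16 CPM in PRP and 49.8 ± 5.68 CPM in control (SD, n = 3 each). The highest of its 6 values, 56.1 CPM, was in control 2, and the lowest, 44.6 CPM, in PRP 1. Its log2 fold change was -0.04 ± 0.10 (SE).

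Rnf17 (Entrez 30054, chromosome 14, 56402650 to 56525032), a ring-finger and tudor protein of nuage studied mainly in mouse testis, was the least abundant member and varied most. It had 26.8, 46.3 and 36.8 CPM in PRP 1, 2 and 3 and 39.3, 53.4 and 37.3 CPM in control 1, 2 and 3. PRP lay below control in 3 of 3 pairs, by log2 differences of -0.55, -0.21 and -0.02, so pair 1 carried most of the difference while pair 3 was close to level. The log2 fold change was -0.24 ± 0.22 (SE, interval 0.59-fold to 1.20-fold) without the block and -0.26 ± 0.09 (interval 0.73-fold to 0.96-fold) with it. It was the member with an unadjusted p under 0.05 in the blocked fit (edgeR, 0.0132) and did not pass after adjustment (adjusted p = 0.287). Leaving out PRP 1 or control 2 brought the log2 fold change to -0.06 (without PRP 1, adjusted p = 0.9999, edgeR; range over its alternatives 0.196 to 0.9999). A small non-coding gene of the table, Gm24392, lies within the span of Rnf17 and held 1 to 25 counts.

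Translational regulators come next. Dazl (Entrez 13164, chromosome 17, 50279393 to 50293620), which binds messenger RNA and promotes its translation in germ cells, had 69.0, 114 and 79.2 CPM in PRP 1, 2 and 3 and 99.9, 113 and 77.6 CPM in control 1, 2 and 3. PRP 1 was the lowest library, and pairs 2 and 3 differed by 0.01 and 0.03 on the log2 scale where pair 1 differed by -0.53. The log2 fold change of -0.15 ± 0.21 (SE) carried a wide interval, from 0.63-fold to 1.29-fold, and without PRP 1 it was -0.01 (adjusted p = 0.9999, edgeR; range over its alternatives 0.557 to 0.9999).

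Ybx2 (Entrez 53422, chromosome 11, 69935805 to 69941604) had 365, 400 and 344 CPM in PRP 1, 2 and 3 and 332, 397 and 314 CPM in control 1, 2 and 3. PRP was higher in 3 of 3 pairs, by 0.14, 0.01 and 0.14 on the log2 scale, yet the groups overlapped because the spread between numbers was larger. Its log2 fold change was 0.09 ± 0.09 (SE) without and 0.09 ± 0.04 with the block, and neither passed (edgeR adjusted p = 0.9998 and 0.447).

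Cpeb1 (Entrez 12877, chromosome 7, 81347026 to 81458001) had 210, 236 and 222 CPM in PRP 1, 2 and 3 and 222, 233 and 207 CPM in control 1, 2 and 3. The groups covered nearly the same range, and the log2 fold change was 0.01 ± 0.07 (SE), with an interval from 0.91-fold to 1.12-fold. In bulk tissue a change in the share of oocytes and a change in RNA per oocyte cannot be told apart for any of these genes. Nor do the counts show which cells a transcript came from.

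**Figure D2:**
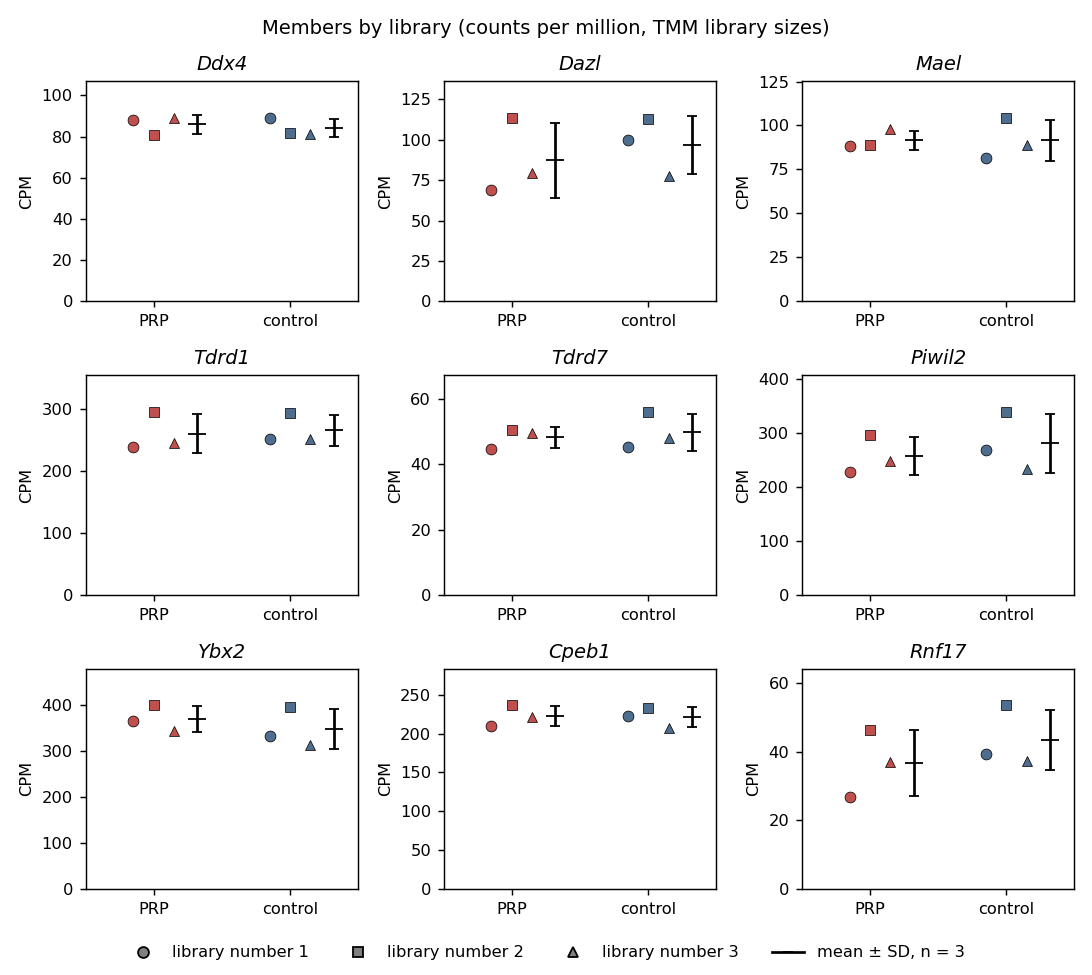
CPM of each member in every library, PRP left of control, with the shape giving the library number and bars for mean ± SD (n = 3). In all 9 panels the groups overlap, and in 7 of them the squares of number 2 are the highest point of both groups, for example 297 and 295 CPM for Tdrd1.

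**Figure D3:**
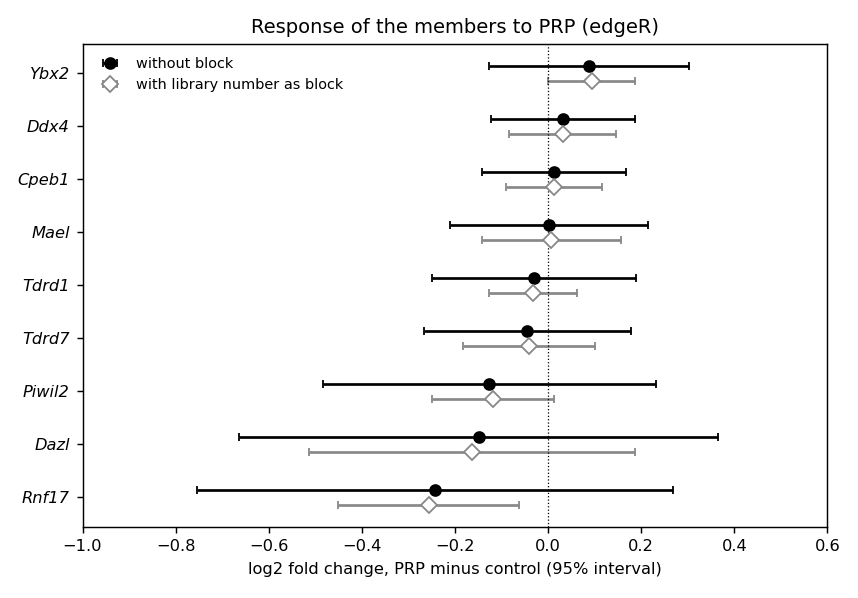
Log2 fold change (PRP minus control) of each member with its 95% interval, without the block (filled) and with the library number as a block (open). All unblocked intervals include 0, and with the block the interval of Rnf17 lies below 0 although its adjusted p is 0.287.

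More of the variance of the members lay between library numbers than between treatments. Part of this follows from the design, which has more library numbers than treatments. The number accounted for 45.7% to 96.4% of the variance of a member's log2 CPM (median 70.5%), against a median of 55.7% over all genes tested, and the treatment for 0.107% to 17.7% (median 6.14%), against a median of 11.3%. With number 2 singled out after its values were seen, PRP 2 and control 2 were the 2 highest libraries for 7 of the 9 members, namely Dazl, Tdrd1, Tdrd7, Piwil2, Ybx2, Cpeb1 and Rnf17. The same held for 13.7% of all genes tested. Relative to the other 4 libraries, the mean of the number 2 libraries was 1.43-fold for Rnf17, 1.40-fold for Dazl, 1.30-fold for Piwil2, 1.20-fold for Tdrd1 and 1.18-fold for Ybx2. Ddx4, at 0.94-fold, went the other way, and Mael had control 2 but not PRP 2 among its 2 highest. In the blocked fit without number 2, 0 members passed.

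The members were not all alike in this. All genes of a library share its depth and tissue makeup, which can differ between libraries. Over the 6 libraries, Pearson's r of log2 CPM between pairs of Dazl, Piwil2, Rnf17, Tdrd1 and Cpeb1, grouped after their values were seen, ran from 0.80 to 0.93. Between Ddx4 and each of the other 8 members it ran from -0.75 to -0.27, but Ddx4 itself spanned only 1.10-fold over these libraries. Mael and Tdrd7 were closest to each other (r = 0.85), whereas Mael and Dazl had an r of 0.18. As shares of the members' summed CPM, Ybx2 took 25.4% in PRP and 23.5% in control, Tdrd1 17.8% and 18.0%, Piwil2 17.6% and 18.8%, and Rnf17 2.49% and 2.91%.

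**Figure D4:**
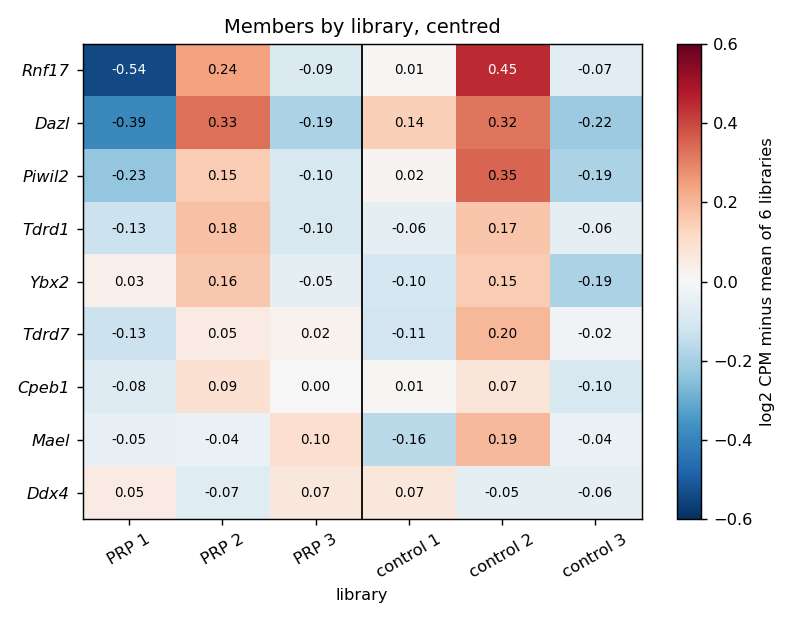
Log2 CPM of each member minus its mean over the 6 libraries, PRP libraries left of control libraries, members ordered by their level in the libraries numbered 2. The columns PRP 2 and control 2 are both positive for the top 7 members, while Ddx4 is at -0.07 and -0.05 there.

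At number 2 the summed level of other oocyte markers was lowest in both groups, where that of the members was highest, although single genes of both lists went the other way. The summed level of 20 other oocyte markers (zona proteins, oocyte transcription factors, growth factors and maternal-effect genes) was 6650, 4523 and 6165 CPM in PRP 1, 2 and 3 and 5925, 4192 and 5311 CPM in control 1, 2 and 3, so PRP 2 and control 2 were the lowest libraries. The 9 members summed to 1358, 1609 and 1413 CPM in PRP 1, 2 and 3 and to 1431, 1673 and 1339 CPM in control 1, 2 and 3, highest at number 2 in both. Their ratio to the other oocyte markers was 0.204, 0.356 and 0.229 in PRP and 0.242, 0.399 and 0.252 in control.

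Among these 20 markers, 11 had both number 2 libraries lowest, where 14.2% of all genes did, and 4 had both highest. Those with both lowest included Zp3, a zona pellucida glycoprotein (0.55-fold relative to the other 4 libraries), Nlrp5, a maternal-effect gene (0.41-fold), and Padi6, of the oocyte lattices (0.63-fold). Those with both highest were the transcription factors Sohlh2 (1.55-fold), Figla (1.22-fold) and Sohlh1 (1.04-fold) and the receptor Kit (1.19-fold). The oocyte transcription factors Nobox (0.96-fold) and Lhx8 (1.11-fold) had number 2 in neither place. These genes were named after their values were seen.

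Some markers of other cells were also low at number 2. Stromal fibroblast markers summed to 8429 CPM in PRP 2 and 7827 CPM in control 2, each the lowest of its group, and 5 of 10 had both number 2 libraries lowest. The sum of the 14 pregranulosa markers stayed between 2011 and 2194 CPM, but 6 of them had both number 2 libraries lowest, among them Inhbb, an activin and inhibin subunit (0.55-fold), and Amh, anti-Mullerian hormone (0.66-fold), and 1 had both highest, Kitl, the ligand of KIT (1.23-fold). Both number 2 libraries were lowest for 4 of 8 endothelial, 3 of 9 macrophage and leukocyte and 1 of 8 surface epithelium markers, and highest for 0 in each of these lists. Surface epithelium markers nonetheless leaned upward at number 2, with a median log2 difference from the other libraries of 0.16. That median was -0.23 for endothelial and -0.20 for macrophage and leukocyte markers. Whether tissue makeup bears on the members' pattern was not tested.

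**Figure D5:**
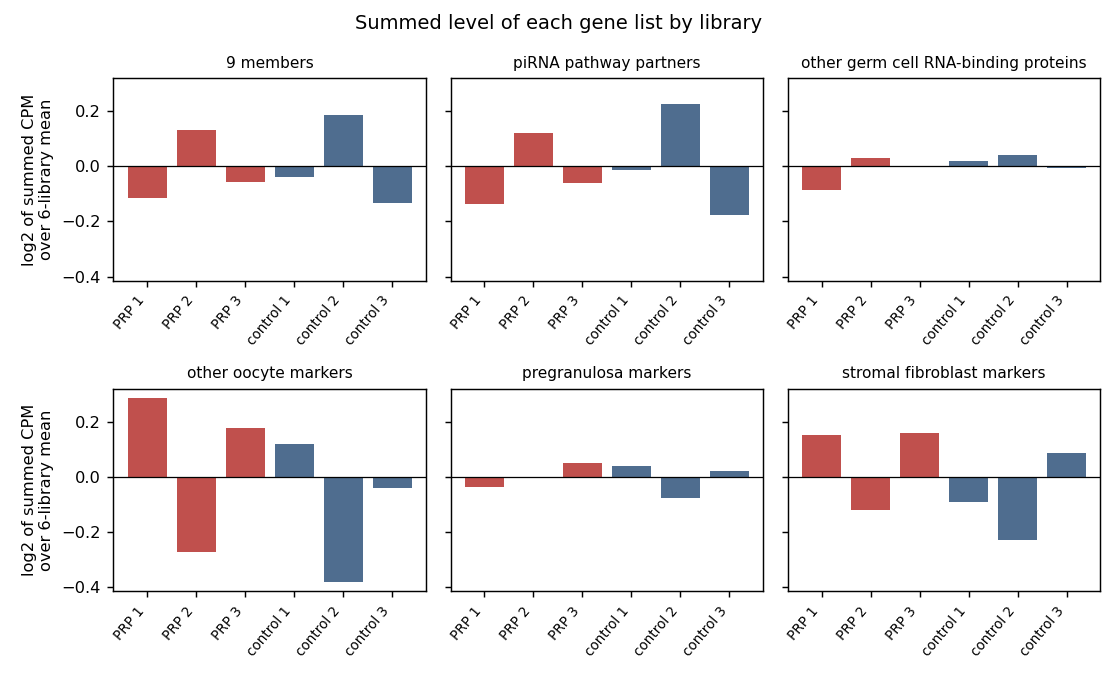
Summed CPM of 6 gene lists per library, as log2 of its ratio to the 6-library mean, PRP bars left of control bars. The members and their piRNA pathway partners are above their mean in PRP 2 and control 2, where other oocyte markers and stromal markers are below theirs.

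Further genes of the same pathways showed no call either. Of 22 piRNA pathway partners, 21 could be tested. Of these, 9 were above 0 and 12 below (median -0.08 on the log2 scale), and 0 passed in either edgeR fit. At an unadjusted p of 0.05, 0 passed without the block and 1 with it, beside 3.19% and 11.2% of all genes. Tdrd6, a tudor gene best known from spermatids, had at most 8 counts and was not tested. Henmt1, the methyltransferase that protects piRNA 3′ ends, had 2.91, 4.14 and 3.24 CPM in PRP 1, 2 and 3 and 4.54, 7.80 and 3.21 CPM in control 1, 2 and 3, a log2 fold change of -0.60 ± 0.33 (SE). Spocd1, which links piRNAs to DNA methylation in mouse male germ cells, averaged 0.90 ± 0.35 CPM in PRP and 0.56 ± 0.18 CPM in control (SD, n = 3 each), a log2 fold change of 0.68 ± 0.50 (SE). At number 2, 8 of the 21 partners (38.1%, beside 13.7% of all genes) had both libraries highest, among them Tex15, Asz1, Gtsf1 and Tdrd5 at 1.47-fold, 1.60-fold, 1.31-fold and 1.15-fold of the other 4 libraries. Spocd1, at 0.53-fold, had both lowest. Piwil1, a PIWI protein of late male germ cells, was at 0.69-fold but had number 2 in neither place. Its means at numbers 1, 2 and 3 were 1.60, 1.58 and 3.18 CPM, with the highest value, 4.21 CPM, in PRP 3. The choice of these names followed from their values.

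Of 25 other germ cell RNA-binding genes tested, 8 were above 0 and 17 below. Their median was -0.05, with 0 calls in either edgeR fit. At an unadjusted p of 0.05, 1 passed without the block and 3 with it, beside 3.19% and 11.2% of all genes. Cpeb2, a relative of Cpeb1, had 24.2, 24.5 and 26.5 CPM in PRP and 31.2, 35.6 and 28.5 CPM in control. Its groups lay apart, with a log2 fold change of -0.34 ± 0.11 (SE), but it did not pass with the block (adjusted p = 0.176, edgeR) or without it (adjusted p = 0.9998). Pum2, a pumilio repressor of translation, had 263, 299 and 297 CPM in PRP and 318, 308 and 320 CPM in control, a log2 fold change of -0.14 ± 0.06 (SE), and its groups lay apart too. Cpeb2 and Pum2 were named for their small p, which favours groups that lie apart. Of the 25 genes, 3 had groups apart, beside 9.21% of all genes.

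The 12 genes listed as partners of CPEB1 had a median of 0.00, 7 above 0 and 5 below, and 0 passed in either edgeR fit. At an unadjusted p of 0.05, 0 passed without the block and 1 with it, beside 3.19% and 11.2% of all genes. Cpsf2, a subunit of the cleavage and polyadenylation factor, and Tacc3, a relative of frog maskin, had log2 fold changes of -0.14 ± 0.07 and 0.09 ± 0.08 (SE). Of the 10 genes of the microRNA and endo-siRNA machinery, 2 were above 0 and 8 below. Their median was -0.08, with 0 calls in either edgeR fit. At that unadjusted level 1 passed without the block and 2 with it, beside the same shares of all genes. Ago2, the Argonaute that cuts its targets, had 74.4, 78.9 and 83.5 CPM in PRP and 86.4, 87.1 and 116 CPM in control, a log2 fold change of -0.29 ± 0.11 (SE), with the highest value in control 3. It did not pass with the block (adjusted p = 0.125, edgeR). Xpo5, which exports microRNA precursors, had a log2 fold change of -0.14 ± 0.06 (SE). The groups of Cpsf2, Ago2 and Xpo5, also named for small p, lay apart, as did those of 9.21% of all genes.

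Of the other oocyte markers, 15 of 20 were above 0 with a median of 0.10, and in the blocked edgeR fit 2 of them passed while 0 passed without the block. At an unadjusted p of 0.05 it was 8 of 20 with the block, beside 11.2% of all genes, and 0 without it, beside 3.19%. Zp2, a zona pellucida glycoprotein, had 1002, 605 and 868 CPM in PRP 1, 2 and 3 and 847, 534 and 722 CPM in control 1, 2 and 3. It rose in the blocked fit by 0.23 ± 0.04 on the log2 scale (SE, adjusted p = 0.0331), PRP being higher in 3 of 3 pairs although the groups overlapped. Zp3 rose there by 0.24 ± 0.04 (adjusted p = 0.0411), also in 3 of 3 pairs. Limma-voom with the block called neither (adjusted p = 0.0513 and 0.0669). Whether the zona genes and the members differ was not tested. For the 14 pregranulosa markers the median was 0.04 with 0 calls in either edgeR fit. At an unadjusted p of 0.05, 1 passed without the block and 2 with it, beside the same shares of all genes. Krt18 and Irx3 had log2 fold changes of 0.17 ± 0.08 and 0.13 ± 0.11 (SE).

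In the remaining cell type lists, calls were limited to Krt19 of the surface epithelium, which rose in the blocked fit of edgeR (0.36 ± 0.06 on the log2 scale, SE, higher in 3 of 3 pairs, adjusted p = 0.0331) and did not pass in limma-voom with the block (adjusted p = 0.0779). At an unadjusted p of 0.05 in the blocked edgeR fit, 9 of 10 stromal fibroblast and 4 of 8 surface epithelium markers passed, beside 11.2% of all genes, and 0 of 8 endothelial and 1 of 9 macrophage and leukocyte markers did. Without the block these counts were 2, 1, 0 and 1, beside 3.19% of all genes. Medians were 0.18 for stromal fibroblast, 0.17 for surface epithelium, 0.08 for endothelial and -0.01 for macrophage and leukocyte markers. Dpt and Tcf21 of the stroma had log2 fold changes of 0.61 ± 0.21 and 0.36 ± 0.15, Cldn5 and Tie1 of the endothelium 0.19 ± 0.13 and 0.18 ± 0.13, and C1qa and Fcgr1 of macrophages 0.33 ± 0.14 and 0.61 ± 0.32 (SE). These genes were named for their small p. Of the macrophage and leukocyte markers, 4 were above 0 and 5 below, and Fcgr1 had only 34 to 68 counts per library. Red cell markers had a median of -1.97, with Ahsp at -4.65 ± 2.19 and Alas2 at -2.45 (95% interval -6.44 to 1.54); without control 3 the median was 0.35.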

How the data were processed

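Per the labels' protocols, RNA of cultured mouse ovary was purified with a ReliaPrep kit and made into libraries with a SMARTER kit. Raw counts for 27098 gene symbols in 6 libraries were deposited in a single table. The genome build, per the submitters' processing notes, is GRCm38, or mm10. Not given in the sources used here: the aligner, the counter, the strand setting and the annotation, so reads of overlapping genes can sit with either. Columns were matched to samples by title; the column taken as PRP 3 has 2 letters exchanged, and every other title has its own column. No pair of libraries was a duplicate (chi-square per degree of freedom 8.85 to 32.0).

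The main test was edgeR's robust quasi-likelihood test (version 4.0.16, R 4.3.3, genes kept by filterByExpr, TMM scaling, PRP minus control, two-sided, Benjamini-Hochberg adjustment over 17475 genes, threshold 0.05), after the code was tested on simulated data. CPM use TMM library sizes, log2 CPM a prior count of 2. A standard error is the log2 fold change divided by the root of its F value, and intervals cover 95%. DESeq2 1.42.0, limma-voom (limma 3.58.1), other scalings, other filters and left-out libraries were alternatives. No label pairs the libraries, but those with equal numbers deviated together from their group means (r of 0.24, 0.40 and 0.33), and unequal numbers gave -0.02 or lower. Deviations within a group sum to 0, so low values at unequal numbers partly follow from high ones at equal numbers. The numbers were therefore only used as a block in a second fit. Coordinates are RefSeq's on GRCm38 (26150 genes found by Entrez identifier) and lengths GENCODE's (21144 genes found by symbol). Members and lists were chosen with earlier results of these data known, so no list was tested as a set. Named were all members and, of each list, the genes that passed in either edgeR fit or otherwise the 2 with the smallest p, and the 5 genes most like the members' mean. Genes given for their level in the libraries numbered 2 fall outside this rule and were chosen after their values were seen.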

Additional observations from a re-analysis of the deposited data

How the results depend on the processing

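Of the 17 alternatives, 0 called a member. Calls over all genes stayed at 0 except with the replicate block, which gave 21; leaving out libraries gave 0 to 19, the highest in a blocked fit without number 3. Members changed sign in the log2 fold change when libraries were left out. Without PRP 1 Tdrd1 was at 0.027 and Tdrd7 at 0.0089, without PRP 2 Cpeb1 at -0.032, and without PRP 3 Mael at -0.047 and Tdrd1 at 0.011. Without control 1 Mael was at -0.078, without control 2 Tdrd1 at 0.051, Tdrd7 at 0.052 and Piwil2 at 0.035, and without control 3 Mael at -0.020 and Cpeb1 at -0.031. With the replicate block, Dazl was at 0.018 and Mael at -0.048 without number 1, Tdrd7 at 0.015 without number 2, and Ddx4 at -0.018, Mael at -0.060 and Cpeb1 at -0.030 without number 3. With 1 library left out and no block, the upper end was 0.11 for Mael and 0.054 for Cpeb1 and the lower end -0.13 for Tdrd1 and -0.11 for Tdrd7. Over all these fits Mael ranged from -0.08 to 0.13, Dazl from -0.38 to 0.02, Piwil2 from -0.24 to 0.04, Ybx2 from 0.02 to 0.20 and Rnf17 from -0.45 to -0.06. The members' median ranged from -0.08 to 0.05, and was -0.03 with the replicate block. No scaling or filter reversed a member.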

Other observations

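The 5 genes outside the group, of a mean of at least 10 CPM, whose log2 CPM over the 6 libraries had the highest Pearson r with the members' mean profile were Map7d2, Wdr36, Nme6, Pcgf5 and Spast, with r from 0.992 to 0.996. They are the top of 10712 genes compared, so high values are built into the choice, and all genes of a library share its makeup. Map7d2, a relative of microtubule-binding MAP7, had 57.1, 84.9 and 68.9 CPM in PRP 1, 2 and 3 and 69.8, 91.1 and 60.8 CPM in control 1, 2 and 3, highest at number 2 in both groups. None of the 5 is on a list used here.

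Among the other germ cell RNA-binding genes, some were high and some low in the number 2 libraries (those named were chosen after their values were seen). Zar1, a maternal-effect gene of growing oocytes, was at 0.43-fold of the other 4 libraries and Patl2 at 0.62-fold, each with both number 2 libraries lowest. Meioc, which keeps germ cells in meiotic prophase, was at 3.65-fold, Ddx25 at 1.39-fold, Rbm46 at 1.23-fold and Elavl2 at 1.19-fold, each with both highest. In this list 7 of 25 genes had both number 2 libraries highest and 3 both lowest, beside 13.7% and 14.2% of all genes tested.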
